A study of Mus musculus with 15 samples.

Results

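Pixels rich in transcripts of neural progenitor genes were examined in 7 transcript libraries from mouse embryo sections. A pixel is the crossing of 2 microfluidic channels that carry barcodes over a tissue section, and it can hold several cells or part of a cell. A pixel was a member when its summed count of Sox2, Pax6, Fabp7, Nes and Hes5, per 10000 counts of that pixel, was in the top 10% of the tissue pixels of its library, and when its summed count of the neuronal genes Tubb3, Stmn2, Dcx, Elavl3 and Elavl4 was not in the top 10%. The rule gave 729 members among 9443 tissue pixels of these libraries, and the whole series has 17046 tissue pixels in 11 transcript libraries. Another 218 pixels were in the top 10% by both sums and were left out by the rule. The members are called progenitor-sum pixels here because the markers, given below, show a mixed content at the latest stage.

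Neural progenitors form the epithelium that lines the ventricles of the developing brain and spinal cord. They divide at the inner surface, and their daughters leave it as neurons. The transcription factors Sox2 and Pax6 mark them. Notch receptors on these cells respond to Delta ligands on neighbouring cells that are becoming neurons, and the target gene Hes5 encodes a repressor of proneural genes. Fabp7 encodes a fatty acid carrier of radial glia. Nes encodes the intermediate filament protein nestin, which is also found in young muscle and vessel cells.

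The study applied deterministic barcoding in tissue to embryos at different pixel widths. The libraries used here came from embryonic day 10 (E10) sections at 50 µm (3 libraries) and 10 µm (1 library), E11 sections at 25 µm (2 libraries) and an E12 section at 50 µm (1 library). No genotype, strain, treatment, sex or section plane is given in the labels, and nothing says whether replicate sections came from separate embryos, so p-values measure only the spread between these sections, which may be technical. E12 had 1 library, so p-values for E12 rest on the spread of the other libraries and hold none between E12 sections. Between E11 and E10 50 µm, stage, pixel width and section region change together and cannot be told apart. E12 and E10 50 µm share the pixel width, but stage and section region cannot be told apart there. The E10 10 µm library differs from E10 50 µm in both pixel width and section region. Y-linked transcripts, given below, also differ between E10 50 µm and E11, and this cannot be separated from the rest. All libraries use the same grid of barcode pairs, so the names of grid positions recur between libraries by design. Of 2500 positions, 307 are shared by all 7 libraries, and a shared name does not mark the same tissue.

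The Notch pathway is among the gene groups described below, and the promoters of 2 of its genes are shown for orientation. Hes5 is a member of the progenitor sum and Lfng, which encodes a sugar transferase that modifies Notch receptors, is not. The sequences are the 250 bases before the start site in the RefSeq table for GRCm38.p6, on the plus strand of chr4:154960673-154960922 and chr5:140607091-140607340. Capitals mark the letters TGGGAA or their reverse complement TTCCCA, the core bound by RBPJ, the DNA-binding partner of Notch.
Hes5: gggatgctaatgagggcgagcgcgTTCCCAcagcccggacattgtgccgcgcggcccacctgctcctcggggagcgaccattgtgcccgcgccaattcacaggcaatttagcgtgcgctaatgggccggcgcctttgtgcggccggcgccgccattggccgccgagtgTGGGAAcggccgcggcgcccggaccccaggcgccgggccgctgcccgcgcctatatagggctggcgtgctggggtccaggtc
Lfng: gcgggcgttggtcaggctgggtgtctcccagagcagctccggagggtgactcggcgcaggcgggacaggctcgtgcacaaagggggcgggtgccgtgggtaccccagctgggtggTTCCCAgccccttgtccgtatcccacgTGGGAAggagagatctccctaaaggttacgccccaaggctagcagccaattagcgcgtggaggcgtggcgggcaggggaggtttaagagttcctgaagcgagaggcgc
The matches begin 226 and 82 bases before the start site of Hes5 and 135 and 108 bases before that of Lfng. Among the genes looked up, Hes5 and Lfng were the only ones with a match. The windows of Dll1, Nes, Sox2 and Nrarp had none, and these are not printed. The letters, on either strand, occur in 25.6% of 32851 mouse promoter windows of 300 bases in that table. They occur in 4 of 17 windows of the listed Notch genes, which do not include Hes5. A match describes the letters only.

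The progenitor-sum pixels numbered 71, 55 and 75 in E10 50 µm replicates 1, 2 and 3, 163 in the E10 10 µm library, 142 and 116 in E11 replicates 1 and 2, and 107 in the E12 library. Their summed counts ran from 322588 at E12 to 1047941 in E10 50 µm replicate 1. The median total per pixel was 12272, 6965 and 10675 counts in the E10 50 µm members, against 11229, 8391.5 and 10634 in the other tissue pixels. In E11 the members were deeper than the other pixels, with medians 1.81 and 1.95 times as high. In E12 they were shallower, at 0.630 of the other pixels. Depth was varied only in the choice of pixels, by thinning each pixel to 1000 counts before the sums were taken. The counts compared between classes were not thinned. Members were then a larger share of the tissue, 18.7% in E10 50 µm replicate 1 and 17.4% in E12, in place of 8.27% and 6.97%. The part of depth in the compared counts was not tested.

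The threshold of the sum differed among libraries. The members just inside and the pixels just outside it stood at 24.9 and 24.9, 21.3 and 21.2, and 29.0 and 29.0 per 10000 in E10 50 µm replicates 1 to 3. The corresponding values were 12.0 and 12.0 in the E10 10 µm library, 22.9 and 22.9 and then 21.6 and 21.5 in E11, and 9.64 and 9.64 in E12. The other tissue pixels of E10 50 µm had a median sum of 10.1 to 16.9, against 2.95 and 3.21 in E11. A top-10% pixel of the E10 50 µm sections thus stood closer to the bulk of its section than one of E11.

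The 5 genes did not contribute equally. Nes supplied 45.0%, 67.5% and 47.0% of the sum in the E10 50 µm members, 41.2% in the E10 10 µm members, 28.1% and 28.6% in E11 and 63.3% in E12. In E11 replicate 1, Pax6 supplied 34.1% of the sum and had a count in 79.6% of members, against 14.7% of other pixels. Sox2 had a count in 92.2% of members of E11 replicate 2. The E12 members were shallow, with a median total of 2329 counts. Only 15.9% of them had a Sox2 count, 10.3% a Pax6 count and 9.35% a Hes5 count, while 90.7% had a Nes count. These values describe the choice of pixels and are no test.

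Pixels in which Nes was the only one of the 5 genes with a count made up 50 of the 107 E12 members (46.7%). The other libraries held 0, 6, 0, 11, 10 and 2 such members, at most 10.9%. At the median total of 2329 counts in the E12 members, a count of 0 does not show that a gene was absent. In E12 the 8 skeletal muscle genes summed to 7294 counts per 1000000 counts of the pixels summed (CPM) in the Nes-only members and 3135 CPM in the other members. The 20 genes of the neural stem and radial glia list summed to 3088 and 4121 CPM in these pixels. The E12 members are therefore a mixture by their markers, and the label of neural progenitors goes against much of what they hold.

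**Figure D1:**
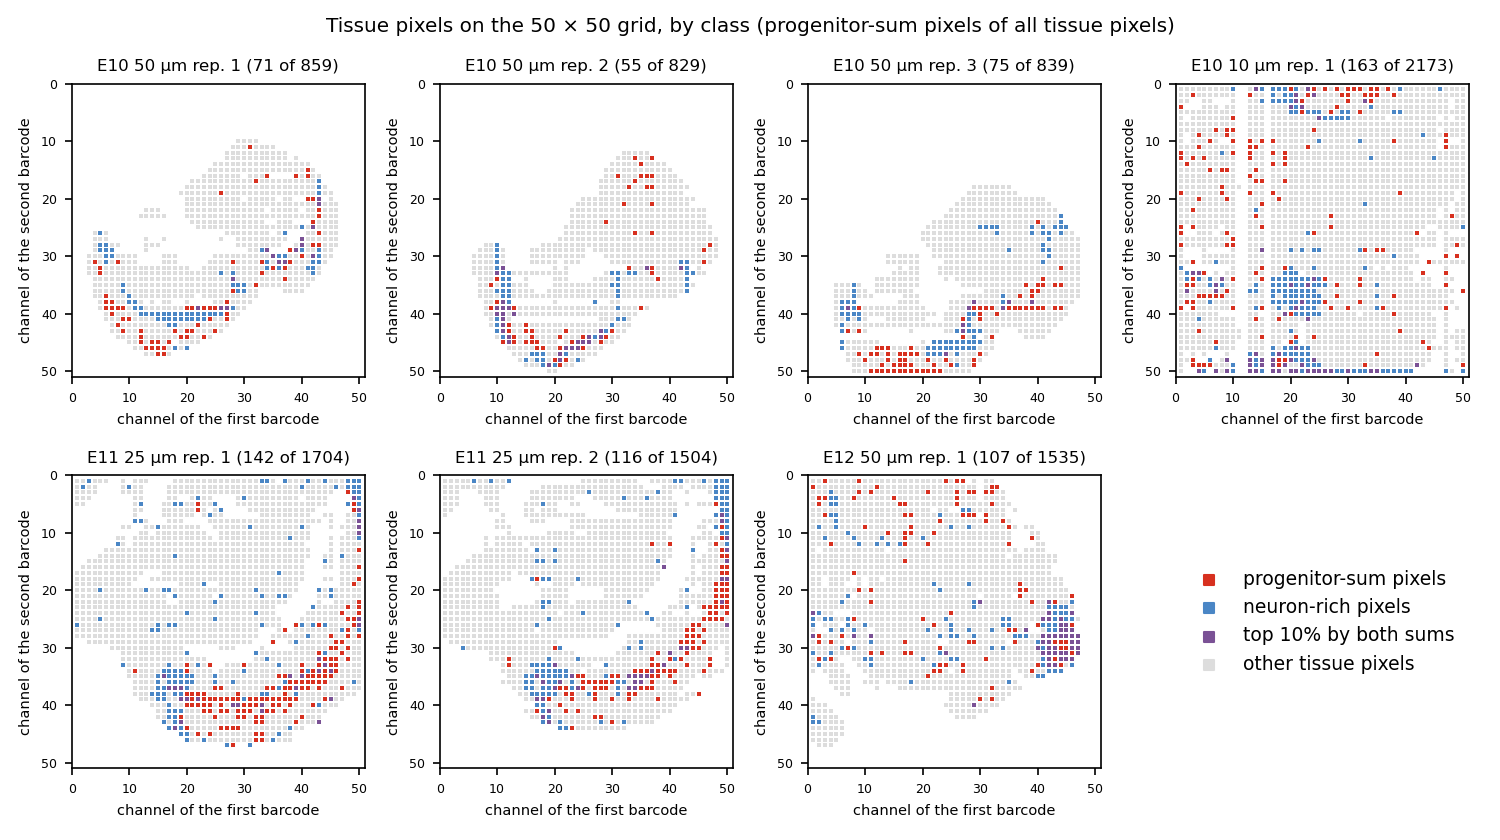
Tissue pixels of the 7 libraries on the barcode grid, with the channel number of each barcode on the axes and 1 square per pixel, coloured by class. Progenitor-sum pixels form a band along the lower right arc of both E11 sections, and in E12 a compact block at the right edge holds many of the 47 pixels that are in the top 10% by both sums and are no members.

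The members lay beside each other more often than their share of the tissue in every library. Of the neighbours of progenitor-sum pixels in E10 50 µm replicates 1 to 3, 23.7%, 13.5% and 39.7% were members too, where members were 8.27%, 6.63% and 8.94% of the tissue. The values were 15.9% in the E10 10 µm library, 39.0% and 39.9% in E11 and 17.0% in E12, against shares of 7.50%, 8.33%, 7.71% and 6.97%. The largest patch held 26 members in E10 50 µm replicate 3 and 42 in E11 replicate 1, but only 5 in E12. These are descriptions, since the choice of pixels fixes the map.

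In E12 the rule left out the most compact group. The 47 pixels in the top 10% by both sums included a patch of 33, and 48.9% of them had a Sox2 count, against 15.9% of the members. Their median total was 5171 counts, against 2329 in the members, and Sox2 stood at 175 and 164 CPM. Skeletal muscle genes summed to 438 CPM in these 47 pixels and to 4876 CPM in the members. Neuronal genes of the wider list summed to 6546 CPM there and to 536 CPM in the members. With the neuron exclusion dropped, the largest E12 patch held 42 pixels in place of 5. No other library held more than 9 pixels in a patch of this class.

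To check the sum with values it did not use, each of its genes was tested in pixels chosen by the remaining genes of the same sum. Sox2 stood at 250, 209 and 277 CPM in such pixels of E10 50 µm replicates 1 to 3 and 176 CPM in the E10 10 µm library. It stood at 225 and 544 CPM in E11 and 117 CPM in E12. The ratios to the other pixels were 1.04, 1.15, 1.28, 1.62, 2.37, 3.49 and 4.14 in that order, so Sox2 was higher in 7 of 7 libraries, but by little in E10 50 µm. Over all libraries the log2 difference was 0.81 (SE 0.28, adjusted p = 0.245, edgeR), which did not pass, and DESeq2 gave 0.92 with an adjusted p of 0.0360.

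Hes5 was higher in 7 of 7 libraries when left out of the sum, with ratios from 1.08 in E10 50 µm replicate 2 to 5.63 in E12 and 3.43 and 2.87 in E11. Its log2 difference was 0.96 (adjusted p = 0.120 by edgeR, 0.0180 by DESeq2). Pax6 was higher in 5 of 7 libraries, with 0.60 of the level of other pixels in E10 50 µm replicate 2 and 10.2 times that level in E12, where it rested on 22 counts (log2 0.65, adjusted p = 0.488). Fabp7 was higher in 6 of 7 (log2 0.50, adjusted p = 0.382).

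Nes did not stand out in pixels chosen by the other progenitor genes. Its ratios were 0.82, 0.88 and 1.04 in E10 50 µm, 1.00 in the E10 10 µm library, 1.53 and 1.72 in E11 and 1.09 in E12 (log2 0.14, adjusted p = 0.631). On the neuronal side, Stmn2, a regulator of microtubules in growing neurites, was lower in 6 of 7 libraries (log2 -0.63, adjusted p = 0.0119, edgeR). Dcx, a microtubule protein of migrating neurons, was likewise lower in 6 of 7 (log2 -0.47, adjusted p = 0.0140, edgeR). These pixels still leave out those richest in the remaining neuronal genes, so both falls are in part built in by the rule. Elavl3, which encodes an RNA-binding protein of young neurons, was 2.34 and 2.18 times as high in the E11 members and did not pass over all libraries (log2 0.32, adjusted p = 0.569).

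**Figure D2:**
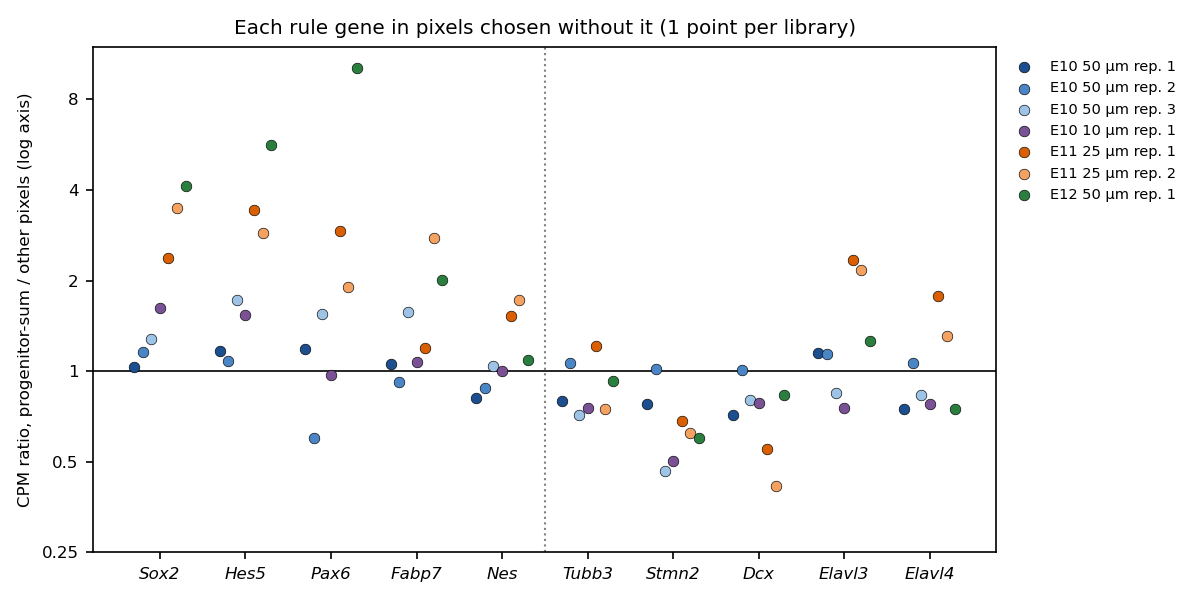
Ratio of CPM in progenitor-sum pixels to other tissue pixels for each of the 10 rule genes, on a log axis, in pixels chosen without that gene, with 1 point per library. Sox2 and Hes5 lie above 1 in all 7 libraries with their largest ratios in E11 and E12, and Nes lies near 1 in E10.

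The first comparison across genes asked what else distinguished progenitor-sum pixels from the other tissue pixels of the same library. Beyond the rule genes, which were not tested, 748 of 15794 genes passed, which is 4.74%, with 240 higher (1.52%) and 508 lower (3.22%). The genes that were higher in members included genes of the Notch pathway, Wnt ligands, radial glia genes and genes of dividing cells, and those that were lower included genes of liver, blood, heart and surface epithelium. The pixels were chosen by 10 genes in these same libraries, so these differences describe which genes vary with the sums from pixel to pixel. Fewer cells of a type and less RNA per cell cannot be told apart in such pixels. With DESeq2's size factors in place of TMM, 351 genes were higher and 416 lower, a share of 45.8% higher in place of 32.1%, so the split between directions depends on the scaling. All calls came from the fit that compares the pixel classes within each library.

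With pixels chosen after thinning to 1000 counts, and their full counts compared, 415 calls were left in this comparison. Of the genes named below, Ttyh1, Lrrn1, Pou3f3, Notch1, Dll1, Neurog2, Wnt7b, Mcm2, Hoxa2, Hoxc9 and Dbx2 no longer passed on the higher side, with log2 differences of 0.11 (Mcm2) to 0.70 (Neurog2). On the lower side Pf4 (-1.04), Krt18 (-0.88), Tagln (-0.48) and Myl7 (-1.42) no longer passed. Glra1 (1.15), Cspg5 (0.83), Rfx4 (0.81), Dtx4 (0.72), Lfng (0.57), Ednrb (0.67), Itih2 (-2.18) and Apob (-2.17) still passed. By list, 1 of 12 hindbrain and spinal cord genes was then higher, and no epithelial, mesenchymal or red cell gene was lower, with medians of -0.20, -0.50 and -0.76 in place of -1.26, -1.13 and -1.07.

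Glra1 and Dtx4 had the smallest adjusted p-values among the genes named here. Glra1, which encodes a subunit of the inhibitory glycine receptor, stood at 70.6, 49.8 and 117 CPM in the E10 50 µm members and at 25.0, 19.4 and 29.5 CPM in the other pixels. It stood at 5.02 against 1.52 CPM in the E10 10 µm library, 92.1 against 25.6 and 128 against 39.9 in E11, and 6.20 against 1.78 in E12. It was higher in 7 of 7 libraries, which was a condition for being named by the size of its difference. The levels in the E10 10 µm and E12 members rest on very few counts (log2 1.68, SE 0.14, adjusted p = 3.18e-10). Of the genes named in this comparison it had the largest positive difference.

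The other genes chosen by the size of their difference were likewise taken only from genes that were higher in 7 of 7 libraries. Cspg5, a proteoglycan of neural tissue, had a log2 difference of 1.31. The transcription factors Rfx4, Sall3 and Sall1, all active in the neural tube, had 1.26, 1.15 and 1.12. The Wnt ligands Wnt7a, Wnt4 and Wnt7b had 1.30, 1.08 and 1.06, with adjusted p-values of 0.000676, 5.56e-08 and 0.0361. Wnt7b, which progenitors use to direct vessel growth into the neural tube, stood at 310 against 78.0 CPM in E11 replicate 1 and 183 against 127 CPM in E10 50 µm replicate 1. Its call was lost in 8 of 19 alternatives.

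Notch genes were given by role. Of 17 genes on the list, 4 were higher and 0 lower, with a median log2 difference of 0.19, against -0.04 over all genes tested. The receptor Notch1 stood at 141 and 158 CPM in the E11 members against 47.0 and 49.8 CPM in other pixels, but at 36.8 against 36.4 CPM in E10 50 µm replicate 2 (log2 0.92, adjusted p = 0.0192, higher in 7 of 7). The call for Notch1 was lost in 6 of 19 alternatives. The ligand Dll1 was higher in 6 of 7 libraries and rested on 1 count in the E12 members (log2 0.89, adjusted p = 0.00149).

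Dtx4, which encodes a ubiquitin ligase that acts on Notch, had 238, 219 and 458 CPM in the E10 50 µm members and 138, 106 and 224 CPM in the other pixels. In the remaining libraries it had 110 against 55.2 CPM in E10 10 µm, 380 against 145 and 299 against 108 in E11, and 31.0 against 23.0 in E12 (log2 1.08, SE 0.09, adjusted p = 3.18e-10). Its level differed most in E11 and least in E12. Lfng, whose promoter is printed above, was higher in 7 of 7 libraries, as its choice required. It stood at 15.5 to 58.2 CPM in members and 4.05 to 27.4 CPM in other pixels (log2 1.03, SE 0.17, adjusted p = 0.000219). The target gene Hes1 did not pass (log2 0.19, adjusted p = 0.370), nor did the feedback inhibitor Nrarp, at 1.29 with an adjusted p of 0.0556. With pixels chosen after thinning to 1000 counts, 2 of the 17 Notch genes passed.

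**Figure D3:**
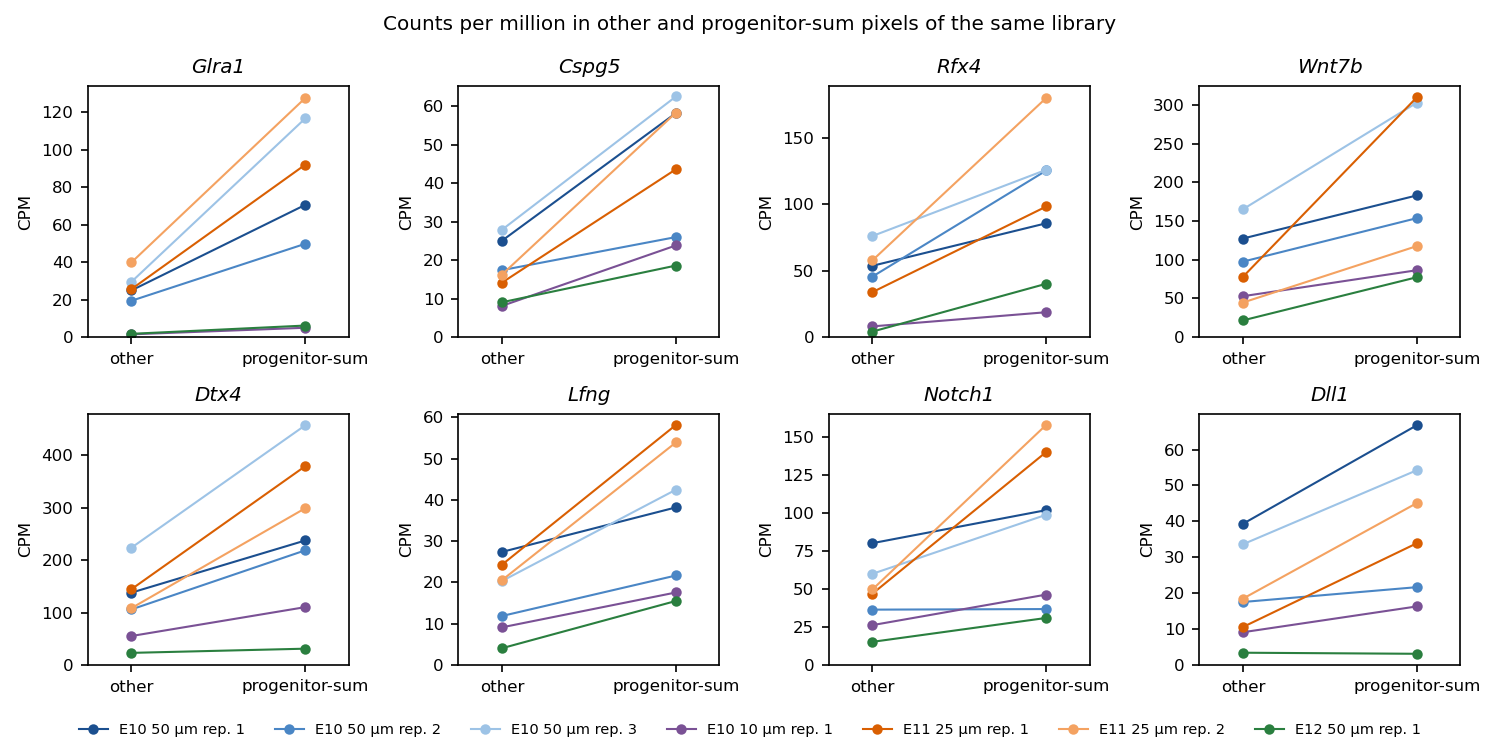
Level in CPM of 8 genes in the other and the progenitor-sum pixels of each library, with a line joining the values of a library. Glra1, Cspg5, Rfx4, Wnt7b, Dtx4, Lfng and Notch1 lie higher in the members of all 7 libraries, and Dll1 in 6. For all of these except Notch1 and Dll1, the same direction in all 7 libraries was a condition of their choice.

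Of the 20 genes of the neural stem and radial glia list, 6 were higher and 2 lower, with a median log2 difference of 0.61. Those higher were Ttyh1 (1.03), a membrane protein of radial glia, Lrrn1 (1.02), Ednrb (0.92), a receptor for endothelins, the POU factor Pou3f3 (0.79), the filament gene Vim (0.60) and Prom1 (0.48), which encodes an apical membrane protein. Vim alone reached 3557 CPM in members of E10 50 µm replicate 3 against 2186 CPM in its other pixels. Mdk, which encodes the growth factor midkine, was lower by a log2 difference of -0.34, and Rest, a repressor of neuronal genes, by -0.43. Members of the list that did not pass included Sox1 (0.51, adjusted p = 0.0636) and Msi1 (0.45, adjusted p = 0.271).

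Progenitors on the way to neurons were represented by 15 proneural and intermediate progenitor genes, of which 5 were higher and 0 lower (median log2 0.44). Neurog2, a proneural factor, stood at 257 CPM in the members of E10 50 µm replicate 3 and at 3.10 to 58.2 CPM in those of the other libraries (log2 1.28, adjusted p = 0.0237, higher in 6 of 7). The call for Neurog2 was lost in 5 alternatives, among them thinning and leaving out either E11 library. Others that were higher were Btg2 (0.65), which restrains division, Hes6 (0.49) and Gadd45g (0.44).

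Genes of mitosis and DNA replication differed little in size. In mitosis, 5 of 18 genes were higher and 0 lower, with a median log2 difference of 0.18. They were Nusap1 (0.51), a spindle protein, Hmgb2 (0.40), Cenpf, Tpx2 and Top2a (0.18), the topoisomerase of dividing cells. Top2a stood at 750 to 1571 CPM in members and 671 to 1337 CPM in other pixels, higher in 7 of 7 libraries (adjusted p = 0.0267). Of 16 replication genes, the helicase subunit gene Mcm2 (0.38) and Rrm2 (0.33), a subunit of ribonucleotide reductase, were higher and none was lower, and the call for Mcm2 was lost in 13 of 19 alternatives. Without the neuron exclusion, 2 of 18 mitosis genes were higher (median 0.07), and of the replication genes 0 were higher and 1 lower (median -0.04).

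Signals and positions were mixed. In the list of Hedgehog and Wnt genes, 4 of 18 were higher and 0 lower: Wnt7a and Wnt7b, above, and the Wnt receptors Fzd3 (0.52) and Fzd10 (0.51). The call for Fzd10 was lost in 11 of 19 alternatives, DESeq2 among them. Of 11 genes that mark hindbrain and spinal cord, Hoxa2 (0.92), Hoxc9 (0.88) and Hoxa5 were higher, and Hoxc9 rested on E11 and E12, since the E10 members had 0 counts. None of 13 forebrain and midbrain genes passed. Of 19 genes of the dorsoventral axis of the neural tube, Dbx2 (1.51), which marks an intermediate domain, was higher, and the roof plate genes Lmx1a (-1.82) and Wnt1 were lower. Wnt1 had 3 counts in members, a ratio of other pixels to members of 4.86 (95% interval 1.64 to 23.8 for counting error only). Thinning turned the sign of both, to 0.11 for Lmx1a and 0.33 for Wnt1, and 8 of 18 alternatives kept the call for Wnt1.

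The neuronal list fell in part by construction, since the rule excludes pixels rich in 5 neuronal genes. Of its 16 genes, 0 were higher and 8 lower (median log2 -0.51), among them Gap43 (-0.65), a growth cone protein, and Isl1 (-0.79), a factor of motor and sensory neurons. Without the neuron exclusion, 0 of 16 passed in either direction and the median was 0.55.

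Some genes of liver, epithelium, blood, mesenchyme, endothelium and heart were lower in the members. In the edgeR fit, most genes of these lists outside liver did not pass. In liver, 5 of 8 genes were lower (median log2 -2.07). Of 8 genes in each list, 2 were lower in epithelium and 1 each in mesenchyme, endothelium and heart, and of 9 red cell genes 2 were lower. DESeq2 placed the calls elsewhere, with 9 of 9 red cell, 6 of 8 heart and 4 of 8 mesenchyme genes lower. By DESeq2, 3 of 8 endothelial, 2 of 8 epithelial and 2 of 8 liver genes were lower. With all 11 libraries, edgeR had 9 of 9 red cell genes lower. Among genes with at least 20 CPM that went the same way in 7 libraries, the largest falls were those of Itih2 (-3.07) and Apob (-2.88), which encode secreted proteins of the liver. In E10 both stayed at or below 1.33 CPM in members and other pixels. Itih2 had 8.80 against 84.9 CPM in E11 replicate 2 and 40.3 against 183 CPM in E12. The platelet gene Pf4 had -2.41, the epithelial keratin gene Krt18 -2.17 and the smooth muscle gene Tagln -1.68, each lower in 7 of 7 libraries. The heart gene Myl7 had -2.35 with an adjusted p of 0.0425, a call lost in 10 of 19 alternatives.

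The summed level of each list shows how much other tissue the members held. Red cell genes summed to 2820 to 52888 CPM in members, 0.170 to 0.750 of their level in other pixels. Mesenchyme genes had ratios of 0.222 to 0.934, with the highest in E12, where members held 3181 CPM. Endothelial genes had ratios of 0.178 to 0.824 in 6 libraries and 1.29 in E10 50 µm replicate 2. Their part in the differences above was not tested.

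Skeletal muscle genes moved differently in E12 from the other libraries. Their sum was 62.0, 204 and 38.9 CPM in the E10 50 µm members, 1198 CPM in the E10 10 µm members, and 174 and 292 CPM in the E11 members, with ratios to other pixels from 0.166 to 0.767. In the E12 members it was 4876 CPM, 3.06 times the 1594 CPM of the other pixels. Of the 8 muscle genes, 0 passed in the comparison over all libraries. Without the E12 library the counts for the neural lists changed little: 6 higher and 2 lower of 20 neural stem genes, 5 higher of 17 Notch genes and 5 higher of 15 proneural genes, while 2 of the 5 muscle genes still tested were lower.

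**Figure D4:**
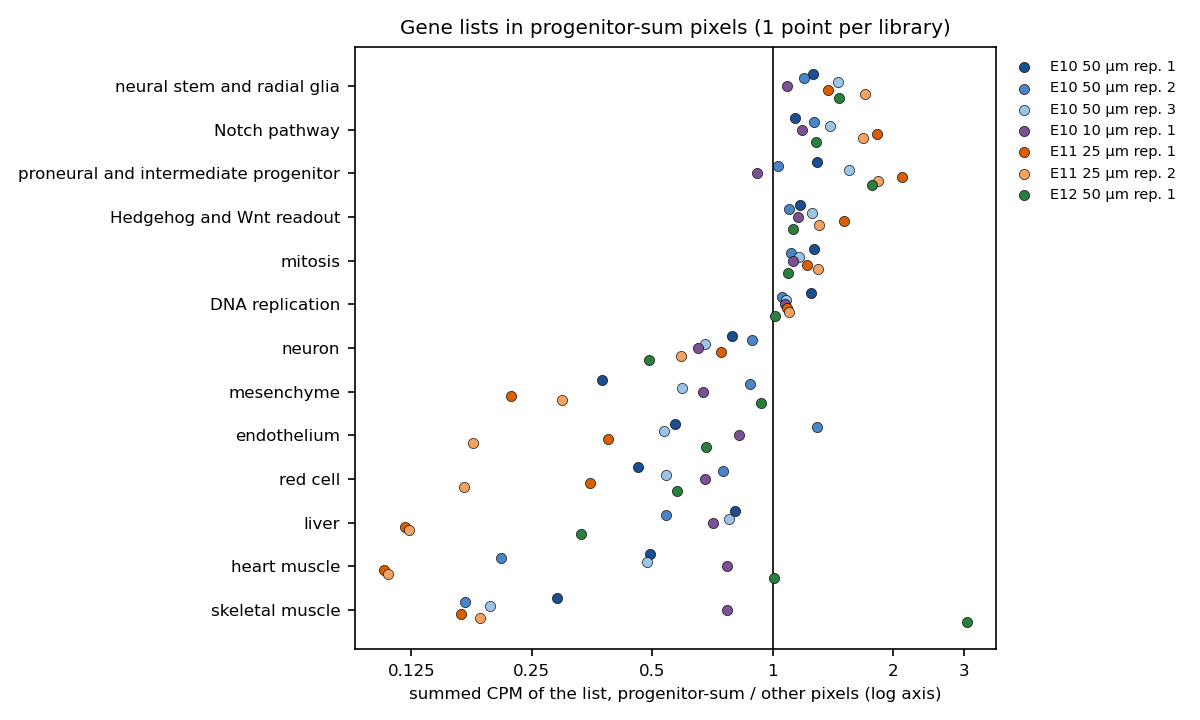
Summed CPM of 13 gene lists in progenitor-sum pixels over that in other tissue pixels, on a log axis, with 1 point per library. Neural stem, Notch, Hedgehog and Wnt, mitosis and DNA replication lists lie above 1 in all 7 libraries, and the skeletal muscle list lies below 1 in 6 libraries and at 3.06 in E12.

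When Nes was left out of the sum, an alternative chosen after its share of the sum was seen, calls were more numerous over all genes, with 518 higher and 1186 lower in place of 240 and 508. Of the 20 neural stem genes, 13 were higher and 1 lower, and of the 17 Notch genes 6 were higher and 0 lower. Among 14 proneural genes, 8 were higher and 1 lower. Of 7 muscle genes 4 were lower, and of 8 endothelial genes 5 were lower. So were 6 of 8 mesenchyme, 6 of 8 heart and 4 of 6 cartilage genes, against 1, 1 and 2 with Nes in the sum. Liver, red cell and epithelial lists went the opposite way in number. Of their 8, 9 and 8 genes, 3, 1 and 0 were lower, against 5, 2 and 2 with Nes in the sum. Their median log2 differences were -1.54, -1.26 and -0.83, in place of -2.07, -1.07 and -1.26.

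A second comparison set the members against an equal number of neuron-rich pixels of each library, those in the top 10% by the neuronal sum and not by the progenitor sum. Here 1957 of 12032 genes passed, 16.3%, with 851 higher (7.07%) and 1106 lower (9.19%). Since both classes were chosen by these sums, the fall of neuronal genes restates the choice, and all 16 listed neuronal genes were lower. Further neuronal genes included Nwd2 (-3.91), the motor neuron factor Isl2 (-3.69), the acetylcholine transporter gene Slc18a3 (-3.60) and the filament gene Prph (-3.08).

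Genes of dividing cells were higher in members than in neuron-rich pixels. In members, 15 of 18 mitosis genes and 12 of 16 replication genes were higher and 0 lower, with medians of 0.64 and 0.61 against 0.02 over all genes. Top2a stood at 1325, 1571 and 1131 CPM in the E10 50 µm members and at 548, 1037 and 651 CPM in the neuron-rich pixels (log2 0.66, adjusted p = 4.34e-06, higher in 7 of 7 libraries). Mcm2 was also higher in 7 of 7 (0.64). Leaving out E10 50 µm replicate 1 lowered the number of calls over all genes to 1193, and DESeq2 gave 892.

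Of the 20 neural stem genes, 15 were higher in members than in neuron-rich pixels and 0 lower, led by Sox21 (1.32). Of 14 Notch genes, 6 were higher: Lfng (1.26), Dtx4, the target Hes1 (0.95), the receptors Notch1 and Notch3, and the ligand Dll1. Dll3, a member of the Delta family that acts within the cell, was lower (-1.19), with 6 of 7 libraries in that direction. Among 13 proneural genes, 1 was higher and 2 were lower, and the lower ones were Insm1 (-0.99) and Neurod1 (-2.44), which act later on the path to neurons. In the apical junction and polarity list 5 of 10 genes were higher, among them Crb2 and Tjp1. Of 17 Hedgehog and Wnt genes, 8 were higher, among them the effectors Gli2 and Gli3.

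Among genes with at least 20 CPM that went the same way in 7 libraries, those with the largest differences on the members' side were Wnt4 (1.85), Lrp2 (1.83) and Adgrv1 (1.63). Lrp2, which encodes the endocytic receptor megalin of the neuroepithelium, stood at 15.5 to 71.5 CPM in members and 4.43 to 15.9 CPM in neuron-rich pixels, higher in 7 of 7 libraries (adjusted p = 7.91e-07). Adgrv1, a large adhesion receptor, stood at 60.2 to 298 CPM in members and 15.9 to 93.7 CPM in neuron-rich pixels.

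Antibody tags were counted on 2 of the E10 50 µm sections, replicates 1 and 3. The share of each of 22 antibodies among all antibody counts was compared between members and other pixels, with no test. The ratios ran from 0.685 to 1.29, with 7 antibodies higher in both sections and 4 lower in both. The Notch1 antibody was at 1.07 and 0.945, so it showed no common direction, while the Notch1 transcript was higher in both sections, at 102 against 80.3 CPM and 99.1 against 60.1 CPM. The KIT antibody was at 1.06 and 1.13 and the NK-1.1 antibody at 0.858 and 0.817.

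Across all tissue pixels, the genes whose counts per 10000 followed the progenitor sum most closely were ranked by their mean Spearman correlation over the 7 libraries. Rule genes aside, Ckb led with 0.369 (range 0.154 to 0.559), followed by Celsr2 (0.356), Tubb2b (0.349), Syt11 (0.337) and Dtx4 (0.330). Map1b, Sox11, Vim, Tuba1a and Kif21a had 0.302 to 0.291. The points are pixels that share a library and differ in depth, so these values are descriptions.

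The groups of sections differed in position along the body axis. Summed over 6 forebrain and midbrain genes, the members had 163, 275 and 94.4 CPM in E10 50 µm, 474 CPM in E10 10 µm, 6.46 and 3.30 CPM in E11 and 46.5 CPM in E12. Summed over 39 Hox genes, they had 666, 501 and 396 CPM, then 6.27 CPM, then 1266 and 1372 CPM, and 728 CPM. The E10 10 µm members were thus nearly free of Hox transcripts, and those of E11 nearly free of the anterior genes. The other pixels were low too, with 6.61 CPM of Hox genes in E10 10 µm and 12.1 and 27.6 CPM of anterior genes in E11. These low levels were therefore not particular to the members. In E10 10 µm the eye field genes also summed to 2.13 times their level in other pixels, where the other libraries had ratios of 0.0596 to 0.848.

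**Figure D5:**
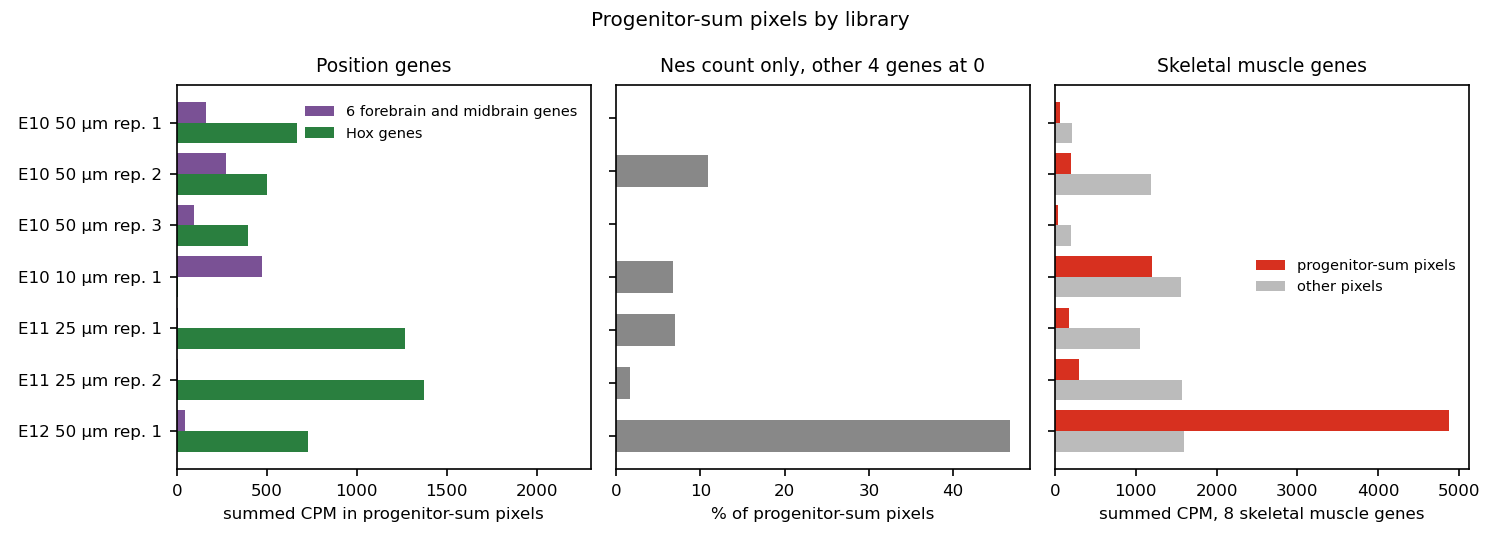
Measures of the progenitor-sum pixels of each library: summed CPM of 6 forebrain and midbrain genes and of 39 Hox genes, the percent of members in which Nes is the only rule gene of the sum with a count, and summed CPM of 8 skeletal muscle genes in members and other pixels. Of the position genes, E11 members carry almost only Hox transcripts, as do the other E11 pixels, which are not drawn for these genes. E12 stands apart in Nes-only pixels (46.7%) and in muscle genes (4876 CPM). E12 members also have the lowest median total per pixel.

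The contrast of members with other pixels was then compared between E11 25 µm and E10 50 µm by an interaction term. It passed for 418 of 15794 genes, 2.65%, of which 180 (1.14%) were more strongly raised in E11 members and 238 (1.51%) less. Neural stem genes had a larger excess in E11: 11 of 20 passed upwards and 1 downwards, with a median difference of 0.72 on the log2 scale. Ptprz1, a phosphatase of radial glia, stood at 42.0 and 113 CPM in the E11 members against 12.4 and 26.6 CPM in other pixels, and at 136, 169 and 234 against 119, 118 and 152 CPM in E10 (difference 1.53, adjusted p = 2.11e-08). Id4 (1.53), Sox21 (1.41) and Sox3 (1.35) behaved alike in direction.

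Some genes of other tissues had a lower ratio in E11 members. Of 8 endothelial genes 4 passed downwards and 0 upwards, and of 9 red cell genes 4 and 0. Of 8 mesenchyme genes 4 passed downwards and 1 upwards. In the other lists 3 of 8 heart, 2 of 8 liver, 1 of 8 epithelial, 0 of 8 skeletal muscle and 0 of 6 cartilage genes passed downwards. Kdr, the main VEGF receptor of vessels, stood at 8.08 and 8.80 CPM in the E11 members against 41.4 and 54.8 in other pixels, while E10 50 µm replicate 2 had 62.8 against 60.5 (difference -2.06). The globin genes among these have near-identical copies, so their split is uncertain. The number of calls rested on 1 library: without E11 replicate 2 it was 34, without replicate 1 it was 226, and DESeq2 gave 61. E11 pixels are narrower, and their members are deeper and more sharply set off by the sum. Y-linked transcripts, given below, also differ between these groups. Width, depth, contrast in the sum and stage cannot be told apart here.

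For E12 the same interaction passed for 74 genes, 0.469%, with 60 higher (0.38%) and 14 lower (0.0886%), the single E12 library being assumed to vary like the others. Of 8 skeletal muscle genes 4 passed upwards (Ttn, Actc1, Tnnt1 and Acta1), with a list median of 3.03, and of 8 heart muscle genes 3. Ttn, which encodes the giant sarcomere protein titin, had 14.3, 132 and 13.0 CPM in the E10 50 µm members against 78.4, 832 and 102 CPM in other pixels, but 2446 against 787 CPM in E12 (difference 4.23, SE 0.19). Des, the muscle filament gene desmin, had 93.0 against 35.9 CPM in E12 and 4 counts in all in the E10 50 µm members (difference 4.001). The call for Des was lost with Nes left out of the sum. Sox21 was the only neural stem gene that passed, at 34.1 against 4.37 CPM in E12, from 11 counts (difference 2.40, adjusted p = 0.0486). Leaving out E11 replicate 2 lowered the 74 calls to 30, and DESeq2 gave 13.

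Members were also compared directly between groups. In E11 against E10 50 µm members, 363 of 11353 genes passed, 3.2%, with 235 higher (2.07%) and 128 lower (1.13%). Posterior Hox genes led: Hoxc9 had 325 and 217 CPM in E11 members and 0 counts in all 3 E10 libraries, at least 205-fold higher against a floor of 3 counts over the group. Hoxc8 was at least 92.1-fold and Hoxa9 at least 31.4-fold higher. Overlapping antisense transcripts of Hox clusters cannot be told apart from these genes, since the use of strand in counting is not given in the sources used here. Otx2, a forebrain and midbrain factor, had 58.2, 71.5 and 41.3 CPM in E10 and 0 in E11, at least 27.9-fold lower. Of 11 forebrain and midbrain genes 6 were lower. In the other E11 pixels the 39 Hox genes summed to 726 and 886 CPM and the 6 anterior genes to 12.1 and 27.6 CPM. The Hox and Otx2 differences were thus not shown to be particular to the members.

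Neurog3, a proneural factor of the neural tube and pancreas, stood at 121 and 119 CPM in the E11 members and at 7.63, 2.17 and 7.08 CPM in those of E10 50 µm. It was named for the size of this difference (log2 4.40, SE 0.47, adjusted p = 7.54e-08, edgeR). Within E11 Neurog3 was also above the other pixels, which had 18.4 and 25.7 CPM. Of 16 neuronal genes 9 were lower in the E11 members and 0 higher, with a median of -1.83, while 0 of 20 neural stem genes were higher and 1, Sox1, was lower.

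Liver and sex-linked genes differed between the sections as a whole. Afp, made by fetal liver, had 102 and 156 CPM in E11 members and 0 counts in E10, at least 105-fold higher, but the other pixels of E11 held 787 and 1254 CPM. The Y-linked gene Ddx3y had 51.5, 36.8 and 73.1 CPM in the E10 50 µm members and 0 counts in members and other pixels of both E11 libraries, at least 28.7-fold lower, and Eif2s3y, Kdm5d and Uty followed. Without E11 replicate 1 the number of calls over all genes was 55, and DESeq2 gave 180.

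In E12 against E10 50 µm members, 276 genes passed, 2.43%, with 235 higher (2.07%) and 41 lower (0.361%). Myh3, the embryonic myosin heavy chain gene, stood at 834 CPM in the E12 members and at 1.91, 0 and 2.36 CPM in those of E10 (log2 8.84, SE 0.57). Of 6 muscle genes 5 were higher, and of 8 mesenchyme genes 5. Afp had 598 CPM, at least 470-fold higher, beside 2056 CPM in the other E12 pixels, and Hoxc10 was at least 65.8-fold higher. Leaving out E10 50 µm replicate 2 raised the calls to 445, and DESeq2 gave 114.

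A minority of the neural stem, Notch and neuronal genes passed, and those that did were lower in the E12 members. Of 20 neural stem genes 4 were lower and 0 higher (Pou3f2, Pou3f3, Msi1 and Sox1), of 16 neuronal genes 4 were lower, and of 12 proneural genes 0 passed. Msi1, an RNA-binding protein of neural stem cells, stood at 178, 111 and 193 CPM in E10 and 12.4 CPM in E12 (log2 -3.66, adjusted p = 0.00189). Of 14 Notch genes 3 were lower: Dtx4 (-3.27), Dll1 with 1 count in E12, a ratio of E10 to E12 of 17.2 (95% interval 3.04 to 686), and Dll3 with 3 counts, a ratio of 8.48 (2.86 to 41.5). Irx3, a homeobox gene of the neural tube, had 0 counts in the E12 members, at least 5.43-fold lower.

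Of 7 genes tied to the later switch to gliogenesis, 4 were higher in the E12 members and 0 lower. Nfib, a nuclear factor of that switch, stood at 803 CPM in E12 members and 130, 178 and 111 CPM in those of E10 (log2 2.54, adjusted p = 5.00e-04). Nfia (2.35), Nfix (3.48) and Tnc (4.05) did likewise. The other pixels of E12 also held much of them, with 638 CPM of Nfib, 278 of Nfia, 79.6 of Nfix and 75.8 of Tnc, and the interaction term did not pass for any of these 4 genes. The muscle and mesenchyme genes of the E12 members stood beside these changes, and their part in them was not tested.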

How the data were processed

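Spatial transcript tables of 7 libraries were used, with antibody tables of 2 E10 50 µm sections. The deposited values are whole-number counts of transcripts, or of antibody tags, per pixel and feature, with no normalization. The submitters' processing notes name CASAVA 1.8.2 and the build GRCh38 without a role, although the gene symbols are those of mouse. The aligner, annotation, use of strand, collapsing of duplicates and filter on pixels are not given in the sources used here.

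A tissue pixel had a total of at least 0.1 of the 95th percentile of its library. Of 16 columns named by an Ensembl ID, 15 were joined to their symbol, which left 30534 features. Counts were summed per library and pixel class, so that the libraries and not the pixels are the replicates. They were tested with edgeR 4.0.16 (quasi-likelihood, TMM, filterByExpr, robust) in R 4.3.3 with limma 3.58.1, with Benjamini-Hochberg adjustment over all genes tested and a threshold of 0.05. The comparisons of pixel classes kept the library as a block. Between groups of sections, the interaction of class and group was fitted with the library as a block, and the members alone were fitted by group. The 10 rule genes counted in library totals and were not tested, except each in pixels chosen without it. CPM are counts per 1000000 counts of a pixel class. DESeq2 1.42.0 was an alternative. Scripts ran in Python 3.11.15 with numpy 2.4.6, scipy 1.17.1 and pandas 2.3.3, and the fits were tested on simulated data.

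The members and the gene lists were chosen with earlier results of these data known. Named genes passed the test, were not predicted genes or pseudogenes and averaged at least 20 CPM in the higher class. In the comparisons of pixel classes they went the same way in all 7 libraries, and the 10 largest differences each way were taken. In the comparisons between groups the 5 largest each way were taken. From each list up to 4 genes that passed with the largest difference were named, and where fewer than 2 passed, the 2 with the highest level. Further list members are named to account for a list's count, and some genes of a list were added after their values were seen. The genes most like the sum were ranked over 6825 genes with a count in at least 5% of the pixels of every library. Alternatives changed the scaling, the low-count filter, the tissue minimum (0.05 and 0.2) and the share of pixels taken (5% and 20%). Others changed the depth at which pixels were chosen (1000 counts per pixel), the neuron exclusion, the block and the libraries, or left Nes out of the sum. Intervals and floors of 3 counts cover counting error only. The labels do not say that a replicate number marks a shared embryo or day across stages, and the numbers were not used to pair sections. The other 4 transcript libraries of the series entered only their number of tissue pixels and an alternative fit of all 11. Results for items withheld from this text are not reported here.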

Additional observations from a re-analysis of the deposited data

Results flagged for a closer look

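In the genes below the difference between progenitor-sum and other tissue pixels itself differed between groups of sections by the interaction term (edgeR, Benjamini-Hochberg adjustment). No group had more than 3 libraries, so a search for single outlying libraries could not be made.

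Between E11 25 µm and E10 50 µm, the log2 difference was larger in E11 for Doc2a by 2.46 (adjusted p = 0.0116), Fst by 2.30 (0.00160), Dbx1 by 1.87 (0.00512) and Vit by 1.85 (0.0167). Dbx1 is a homeobox gene of the neural tube, and Fst encodes the activin antagonist follistatin. It was smaller for Irx2 by -4.86 (1.49e-11), Ttr by -3.75 (8.32e-22), Bgn by -3.72 (4.28e-09), Arg1 by -3.53 (0.00482) and Cacna2d2 by -3.33 (0.00228). Irx2, a homeobox gene, stood at 84.9, 82.3 and 298 CPM in the E10 50 µm members and at 1.62 and 1.10 CPM in those of E11, while the other pixels held 35.1, 29.6 and 56.8 CPM and 10.3 and 11.4 CPM.

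Between E12 and E10 50 µm, the log2 difference was larger in E12 for muscle genes. It was larger by 4.23 for Ttn, 4.001 for Des, 3.66 for Synpo2l, 3.65 for Smyd1 and 3.62 for Myl1. It was smaller for Arrb1 by -2.01, Ttr by -1.71, Lpl by -1.55, Evi5 by -1.51 and Nefm by -1.32. E12 had 1 library, assumed to vary like the others, so p-values are left out for these E12 genes. None of the genes listed here, for E11 or E12, passed in every alternative run. Of 16 alternatives for E12, Smyd1 lost its call in 12, and Arrb1, Lpl and Evi5 lost theirs in 10 each. Nefm lost its call in 10 and turned sign in 2. With Nes left out of the sum, all genes listed for E12 except Ttn lost the call.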

How the results depend on the processing

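Without the library as a block, which is the fit with no replicate block, the 748 calls against other tissue became 0 (796 genes at an unadjusted p under 0.05, edgeR) and the 1957 against neuron-rich pixels became 232. Replicate 1 of E10 50 µm and replicate 1 of E11 deviated from their groups with a correlation of 0.0251, the only pair computed. In replicates 1 and 2 alone, the fit with the replicate block gave 331 calls against 351 with no replicate block. Against other tissue, no low-count filter gave 1300 calls, thinning 415 and Nes left out 1704, and leaving out 1 library gave 457 to 863, with 457 without E11 replicate 2 and 470 without E10 50 µm replicate 1. Against neuron-rich pixels, DESeq2 gave 892, the top 5% 1131, thinning 1024 and leaving out 1 library 1193 to 1940. For the interactions, E11 gave 61 by DESeq2, 103 and 1088 for the top 5% and 20%, and 34 to 391 without 1 library. E12 gave 13, 22 and 192 in these settings, 42 without the filter, 212 without the neuron exclusion and 30 to 85 without 1 library. For members by group, E11 gave 180, 185 and 660, 545 without the exclusion and 55 to 405 without 1 library, and E12 gave 114, 71 and 696, 657 when thinned and 185 to 445 without 1 library. Of the left-out rule genes, Sox2 (0.92) and Hes5 (1.05) passed by DESeq2, Fabp7 (0.51) and Elavl3 (0.41) in the top 5%, and Dcx (-0.46) no longer passed in the top 20%. In the top 20%, 41.0% of neighbours were members. Signs turned against other tissue for L1cam (0.28), Nefl (0.44) and Mapt (0.56) without the neuron exclusion, Wnt1 (0.33) and Lmx1a (0.11) when thinned and Serpina1a (0.44) by DESeq2, and in the E12 interaction for Nefm without the exclusion (0.78) or without Nes (0.54). The cause was not tested. DESeq2 moved the median of all genes by 0.22 and the missing filter by -0.20 against other tissue. E12 members held 322588 counts, so genes at a few counts there had wide intervals.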
